A study of Mus musculus with 2 samples.

Results

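The genes described here are 9 markers of the upper and middle layers of the mouse neocortex. Cux1, Cux2, Rasgrf2, Otof, Calb1 and Pou3f2 mark upper-layer neurons, and Rorb, Whrn and Scnn1a mark layer 4. They were taken from a list of gene names that was made with earlier results of these data known, and all 9 were found among the 55536 annotated genes of the tables. Total RNA had been sequenced from left cerebral cortex. The tissue came from female mice of 2 months of the strain B6CASTF1/J, the F1 offspring of a cross between C57BL/6J and CAST/EiJ. The series holds 1 group of 2 libraries, replicate 1 and replicate 2, each made from 300 ng of total RNA to which ERCC spike-ins were added, with no treatment and no engineered allele named. Both libraries carry the same donor entry in the labels, so that separate animals are not stated in words and the spread between the libraries may be technical. With 1 group of 2 libraries there is no test between groups, and no p-value is given.

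Neurons of the upper layers connect cortical areas with each other and, across the corpus callosum, the hemispheres, whereas layer 4 neurons are the main target of sensory input from the thalamus. Cux1 and Cux2 are homeodomain transcription factors that shape dendrites and synapses of upper-layer neurons, and Pou3f2, also called Brn2, acts in the production and migration of these cells. Rorb is a nuclear receptor known for its part in the clustering of layer 4 neurons into barrels. The other members are effectors: a guanine nucleotide exchange factor for Ras and Rac (Rasgrf2), a calcium buffer (Calb1), a calcium-binding ferlin of vesicle release (Otof), a PDZ scaffold protein (Whrn) and a subunit of the epithelial sodium channel (Scnn1a). In this bulk tissue, fewer cells of a type and less RNA per cell cannot be told apart.

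Total expected counts were 31196858 in replicate 1 and 32292150 in replicate 2. Levels are in TPM, which corrects for transcript length and has a fixed total in each library, from the alignment-based gene tables unless the read-based tables are named. The small cytoplasmic and nuclear RNAs 7SL and 7SK held 33.2% and 35.0% of TPM in the alignment-based tables. Over 12958 protein-coding genes with at least 1 TPM in both libraries, the median log2 ratio of TPM, replicate 2 over replicate 1, was -0.084, so comparisons between the libraries below use scaled counts and not TPM.

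All 9 genes were present in both libraries, over a range from about 1 TPM to about 100 TPM. Rasgrf2 (chr13:91880400-92131656, minus strand, mm10) had 109 TPM in replicate 1 and 99.6 TPM in replicate 2, from 7352 and 7377 counts. Its mean of 104 ± 6.77 TPM (SD, n = 2) was the highest of the 9, at rank 870 of the 12958 detected protein-coding genes. This level adds incomplete transcript models of separate parts of the gene, which are described below. Cux2 (chr5:121856366-122050102, minus strand) followed with 101 and 91.8 TPM from 6568 and 6588 counts. The TPM ranges of these genes overlapped, although Rasgrf2 was above Cux2 within each library, by 1.08 and 1.09 times.

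Calb1 (chr4:15881264-15908064, plus strand) had 73.1 and 69.0 TPM from 3265 and 3205 counts. Cux1 (chr5:136248135-136567490, minus strand), the homologue of Cux2, had 54.8 and 49.9 TPM from 5560 and 5397 counts. The order of Calb1 and Cux1 depended on the kind of table. In the read-based tables Cux1 had 85.5 and 79.7 TPM and Calb1 55.8 and 56.2 TPM, so that Cux1 was the higher one in both libraries. The description of the Calb1 transcripts below gives the values that differ.

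The layer 4 genes Rorb and Whrn had nearly equal TPM at the gene level. Rorb (chr19:18930605-19111196, minus strand) had 26.5 and 22.9 TPM from 4588 and 4385 counts. Whrn (chr4:63414910-63495991, minus strand) had 26.2 and 22.95 TPM, but from 1303 and 1408 counts, with a deposited effective length of 2432 and 2802 bases against 8464 and 8734 bases for Rorb. The ranges of this pair overlapped, and which was the higher one changed between the libraries. Coding transcripts alone were not equal, with 25.5 and 22.4 TPM for Rorb and 14.7 and 14.2 TPM for Whrn.

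Otof (chr5:30367062-30461932, minus strand) had 13.5 and 11.8 TPM from 1922 and 1767 counts, and Pou3f2 (chr4:22482780-22488366, minus strand) 11.4 and 11.6 TPM from 1275 and 1399 counts. Their ranges did not overlap, but the difference of their means, 1.12 TPM, was smaller than the SD of 1.20 TPM of Otof. Scnn1a (chr6:125320659-125344943, plus strand) was the lowest member, with 1.5 and 1.08 TPM from 104 and 79 counts. Its mean of 1.29 ± 0.297 TPM (SD, n = 2) lay at rank 12767.5 of 12958, close to the limit of 1 TPM for a detected gene. From Pou3f2 to Scnn1a the level dropped 7.58 times in replicate 1 and 10.8 times in replicate 2, a wider step than between any other neighbours in the order of the 9 genes.

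**Figure D1:**
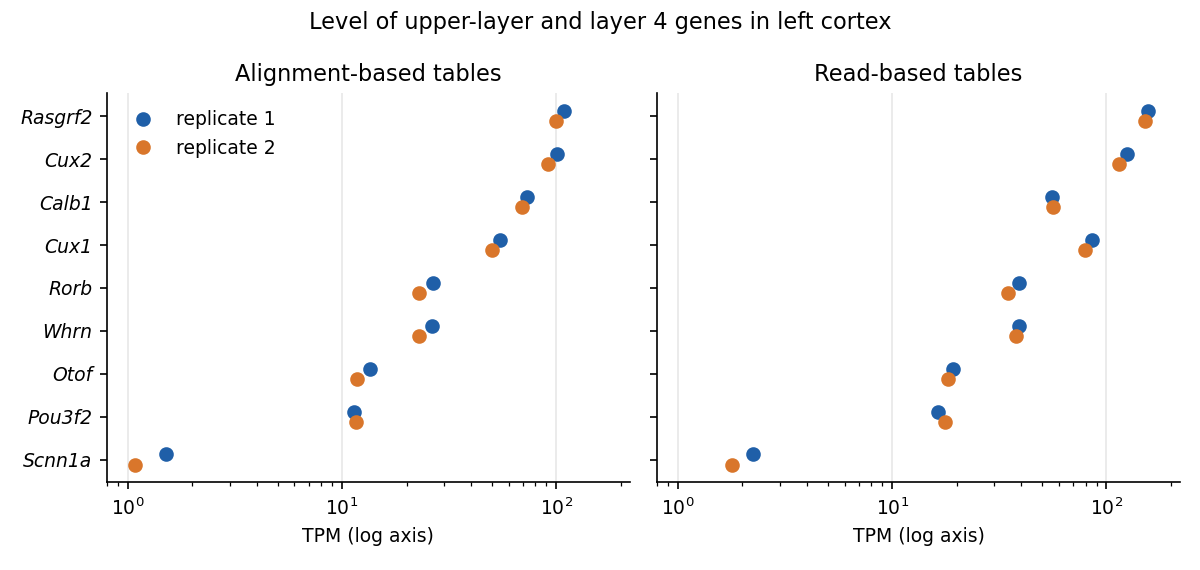
TPM of the 9 genes (log axis) in replicate 1 (blue) and replicate 2 (orange), from the alignment-based tables (left) and the read-based tables (right); each point is 1 library. The genes stand in the order of their alignment-based means, from Rasgrf2 at 104 TPM to Scnn1a at 1.29 TPM, and Cux1 lies above Calb1 in the read-based panel.

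At a length of 100 bases, the annotated transcripts of these genes could be told from those of other genes by exact sequence. Shorter or inexact matches were not checked. Read-based counts of Pou3f2, which has 1 transcript, were fractional at 1374.07 and 1516.55. Of the distinct windows of 100 bases in the annotated transcripts of each member, between 4500 windows for Scnn1a and 20896 for Cux1, 0 were found in a transcript of another gene on the sense strand. Cux1 and Cux2 overlap other annotated genes in the genome. Inside Cux1, A430110C17Rik had 64 and 80 counts and Gm38082 had 95 and 101 counts on the same strand, and the antisense gene Gm16599 had 1 and 0 counts. The antisense genes Gm3970 and Gm15637 at Cux2 had 0 counts in both libraries.

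Transcript forms were described next, since several of the 9 genes have transcripts that differ in their coding sequence. The 9 genes have 69 annotated transcripts, of which 42 held at least 5% of the TPM of their gene in at least 1 table. The transcript with the highest TPM was the same in both libraries for 8 of the 9 genes in the alignment-based tables and for 9 in the read-based tables. It was the same in all 4 tables for 6 genes.

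Cux1 produced its long and its short coding form side by side. The long form, Cux1-201 with 1426 codons, encodes the transcription factor with its DNA-binding CUT repeats and homeodomain. The short form, Cux1-211 with 676 codons, shares the start of the protein and then takes other exons; the product of this kind is known as CASP, a membrane protein of the Golgi that lacks the DNA-binding domains. The forms share 1249 coding bases, 29.2% of the long form and 61.6% of the short one. The sequences below show where they part, with the last 30 shared coding bases in lower case and the first 60 coding bases of each form's own part in capitals (mm10, minus strand, chr5:136312949-136313008 for the own part of Cux1-201 and chr5:136257981-136258040 for that of Cux1-211).
Cux1-201: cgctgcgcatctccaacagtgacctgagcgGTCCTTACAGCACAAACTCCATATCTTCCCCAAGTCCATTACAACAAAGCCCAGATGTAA
Cux1-211: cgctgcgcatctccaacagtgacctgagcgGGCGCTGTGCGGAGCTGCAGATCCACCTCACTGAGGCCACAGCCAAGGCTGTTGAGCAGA
Both lines read the same up to and including the first capital and differ from the second one on. The 3 transcripts that end as Cux1-211 does held 42.3% of Cux1 TPM in replicate 1 and 42.9% in replicate 2. The 5 transcripts that end as Cux1-201 does held 38.4% and 38.0%. In TPM this came to 23.2 and 21.4 for the short ending and 21.03 and 18.96 for the long ending. Both shares differed by less than 1 percentage point between the libraries.

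Read counts gave another picture of the same gene, because Cux1-201 is a transcript of 12862 bases and Cux1-211 one of 2831 bases. Of the counts of Cux1, 72.0% and 71.9% were on transcripts with the long ending and 23.3% and 23.7% on those with the short ending. In the read-based tables the short ending had 35.5% and 36.9% of TPM, and the long ending 35.4% and 35.5%. The remaining TPM was mostly that of Cux1-208, a model of 268 codons incomplete at both ends, with 14.1% and 14.6% in the alignment-based tables. Among the transcripts with the long ending, Cux1-201 itself held 19.0% and 20.4% of the TPM of the gene, Cux1-206 8.50% and 8.64%, and Cux1-212 8.06% and 8.06%.

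The coding sequences also showed how Cux1 relates to Cux2. A blastn alignment of the 4278 coding bases of Cux2-202 with Cux1-201 covered 35.8% of them at 74.5% identity, including 660 of the last 1500 bases. With Cux1-211 it covered 8.30% at 72.8% identity and 0 of the last 1500 bases.

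Cux2 differed from Cux1 in that its main coding transcripts all encode the same protein. Cux2-201, Cux2-202 and Cux2-210 have an identical coding sequence of 1426 codons and differ outside it, including in where they start. Together they held 86.6% and 87.3% of Cux2 counts, or 43.9% and 44.5% of its TPM. The rest of the TPM lay on short models that take few counts. Cux2-205, a model of 420 bases with an incomplete coding sequence, held 18.4% and 17.5% of TPM, the retained-intron transcript Cux2-211 16.9% and 15.5%, and the processed transcript Cux2-204 11.9% and 13.7%.

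The upstream regions of 2 of the Cux2 starts are in the RefSeq promoter table (GRCm38.p6), and they are of different kinds. The sequences show the bases before each start, with matches to the motifs searched in capitals; Cux2-202 starts at chr5:122049851 and Cux2-201 at chr5:122047825, both on the minus strand. For Cux2-202, chr5:122049852-122050015 is printed, since the 86 bases beyond it belong to an exon of Cux2-207. For Cux2-201, chr5:122047826-122048075 is printed, of which the 66 bases next to the start are also an exon of the noncoding transcript Cux2-203.
Cux2-202 start: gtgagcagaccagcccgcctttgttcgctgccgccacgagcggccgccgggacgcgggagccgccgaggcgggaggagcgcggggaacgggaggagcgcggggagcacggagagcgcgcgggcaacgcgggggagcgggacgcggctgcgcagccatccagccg
Cux2-201 start: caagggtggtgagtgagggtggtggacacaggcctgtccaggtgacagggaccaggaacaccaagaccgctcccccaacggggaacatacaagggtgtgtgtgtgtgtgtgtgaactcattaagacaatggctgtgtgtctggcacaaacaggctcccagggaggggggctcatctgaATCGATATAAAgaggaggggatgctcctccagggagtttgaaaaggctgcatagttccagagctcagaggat
The motifs searched on both strands were the TATA box (TATAAA), the GC box (GGGCGG), the CCAAT box (CCAAT), a CUX core (ATCGAT), the POU octamer (ATGCAAAT) and a ROR half-site (AGGTCA). The region before Cux2-202 held none of these letters, whereas that before Cux2-201 held a CUX core from 72 to 67 and a TATA box from 67 to 62 bases before the start, which share 1 base. Among 32851 RefSeq promoter windows of 300 bases, 0.925% held ATCGAT and 13.6% TATAAA. The window at Cux2-202 had 80.3% G and C bases and 48 CpG sites, an observed over expected CpG ratio of 1.01 against a median of 0.384 over all windows. The window at Cux2-201 had 56.7% G and C bases and 4 CpG sites, with a ratio of 0.176. A match describes letters and is neither a binding site nor a cause.

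Of these Cux2 starts, that of Cux2-202 had similar shares in both kinds of table and that of Cux2-201 did not. Cux2-202 held 17.7% and 19.4% of Cux2 TPM in the alignment-based tables and 20.2% and 22.5% in the read-based tables. Cux2-201 had 298 and 507 counts in the alignment-based tables and 3102 and 3372 in the read-based ones. Cux2-210 went the other way, with 2221 and 1857 against 276 and 0.940 counts. The deposited posterior SDs of the alignment-based counts were 136 and 160 for Cux2-201 and 139 and 161 for Cux2-210, smaller than these differences. Of the windows of 100 bases in Cux2-202, 45.2% occur in no other annotated transcript, but only 1.95% of those of Cux2-201 and 1 of 4598 windows of Cux2-210. The part of this shared sequence in the disagreement was not tested.

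Rorb came almost wholly from the upstream of the 2 transcription starts that its annotated coding transcripts have. The protein isoform from the upstream start is known as RORβ1, and a longer one from the downstream start, RORβ2, is known from retina and pineal gland. Rorb-203, with 459 codons, begins upstream, and Rorb-201, with 470 codons, downstream. The first coding bases are shown with those of each form's own start in capitals and the first 30 shared bases in lower case (chr19:19110552-19110558 for the own bases of Rorb-203 and chr19:19001007-19001046 for those of Rorb-201, minus strand).
Rorb-203: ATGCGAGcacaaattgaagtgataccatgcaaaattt
Rorb-201: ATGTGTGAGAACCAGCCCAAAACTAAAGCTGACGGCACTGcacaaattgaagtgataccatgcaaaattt
Rorb-203 thus has 7 coding bases of its own and Rorb-201 has 40, and the remaining 1370 are common to both. Rorb-203 held 89.0% and 93.0% of Rorb TPM and 96.7% and 97.9% of its counts. The read-based tables gave it 88.7% and 96.5% of TPM. The 4 transcripts that begin downstream held 154 and 90.2 counts together. Among them Rorb-202, a form of 385 codons whose coding sequence begins farther downstream, had 106 and 63.2 counts, while Rorb-201 had 0 and 0.20 counts with deposited posterior SDs of 74.8 and 84.6. All 100-base windows of Rorb-201 also occur in another annotated transcript.

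The 2 Rorb starts also differ in the sequence before them. The 250 bases before each start are shown with motif matches in capitals (chr19:19111197-19111446 and chr19:19001118-19001367, minus strand, RefSeq, GRCm38.p6).
Rorb-203 start: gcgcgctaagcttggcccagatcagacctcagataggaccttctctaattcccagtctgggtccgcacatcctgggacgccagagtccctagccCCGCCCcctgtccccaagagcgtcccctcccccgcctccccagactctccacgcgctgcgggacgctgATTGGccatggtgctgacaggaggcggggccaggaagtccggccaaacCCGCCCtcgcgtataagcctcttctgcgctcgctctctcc
Rorb-201 start: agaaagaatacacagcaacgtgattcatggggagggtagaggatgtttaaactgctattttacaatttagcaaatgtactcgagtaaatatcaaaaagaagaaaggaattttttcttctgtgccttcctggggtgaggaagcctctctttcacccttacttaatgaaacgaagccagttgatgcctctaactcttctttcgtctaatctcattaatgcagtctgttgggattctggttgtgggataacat
The region before Rorb-203 held 2 GC boxes, from 156 to 151 and from 40 to 35 bases before the start, and a CCAAT box from 88 to 84, each on the opposite strand. The region before Rorb-201 held none of the motifs searched. GC boxes occurred in 35.7% and CCAAT boxes in 37.4% of all RefSeq promoter windows. The window at Rorb-203 had 63.7% G and C bases and 20 CpG sites, and that at Rorb-201 had 41.0% and 5 CpG sites. For Cux2 and Rorb alike, the start farther upstream was the one with more CpG sites.

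Of the 9 genes, 6 matched the RefSeq promoter table, with 8 windows in all. The single start of Pou3f2 had 67.7% G and C bases and 24 CpG sites, with 2 CCAAT boxes and a GC box. The window at Whrn-202 had 70.0% and 29 CpG sites with 2 GC boxes, and that of Rasgrf2 66.0% and 28 CpG sites with none of the motifs. The Rasgrf2 window belongs to a start at chr13:92131828, whereas the annotated gene begins at chr13:92131656, so it matches no transcript start used here. The Cux1 window, with 65.0% and 25 CpG sites, matched none either. No window of the members held AGGTCA or ATGCAAAT, which 16.3% and 1.74% of all windows hold.

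**Figure D2:**
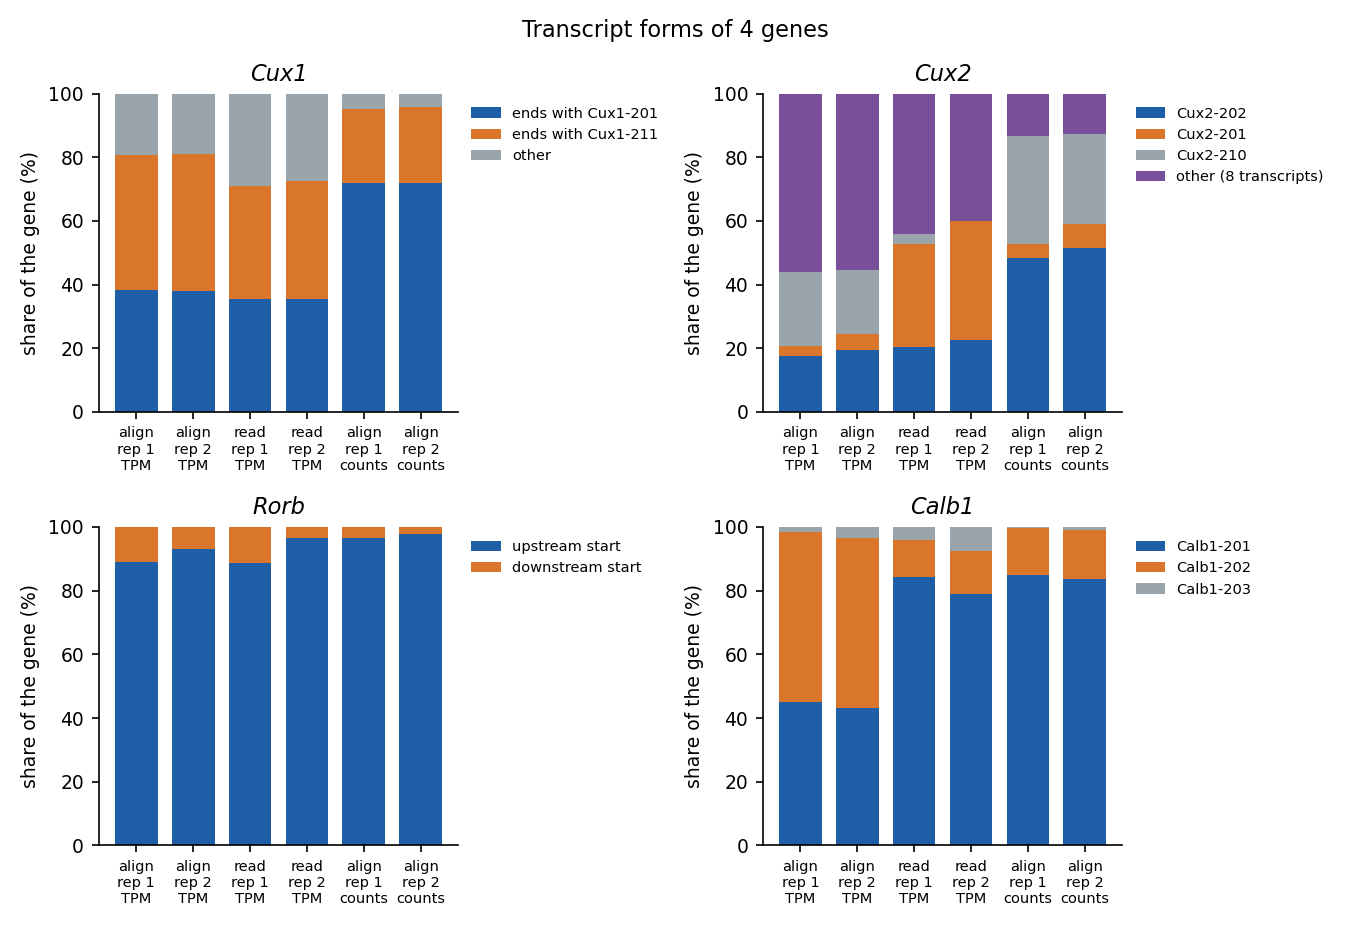
Share of each gene (%) by transcript or group of transcripts for Cux1, Cux2, Rorb and Calb1; each bar is 1 library, with TPM shares from the alignment-based tables (align) and the read-based tables (read) and, at the right of each panel, count shares from the alignment-based tables. Replicates resemble each other within a kind of table, while Cux2-201 and Cux2-210, and Calb1-201 and Calb1-202, exchange their shares between kinds of table.

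Calb1, the calcium buffer calbindin, had 1 coding transcript, Calb1-201 with 261 codons, and 2 retained-intron transcripts. Calb1-201 held 84.8% and 83.8% of counts but 44.9% and 43.2% of TPM in the alignment-based tables. Calb1-202, a retained-intron transcript of 701 bases, held 53.4% and 53.2% of TPM from 481 and 484 counts. In the read-based tables the order was the reverse, with 84.4% and 79.1% of TPM on Calb1-201 and 11.6% and 13.2% on Calb1-202. Calb1-201 itself had 32.9 and 29.8 TPM in the alignment-based tables and 47.1 and 44.5 TPM in the read-based ones, so the gene level of 73.1 and 69.0 TPM contains a large part from a noncoding model.

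Otof, the ferlin otoferlin, had one long coding form with counts in both kinds of table. Otof-201, with 1997 codons, held 58.2% and 57.6% of TPM. The retained-intron transcripts held 41.8% and 42.4% together. Within this sum Otof-204 had 646 and 309 counts and Otof-205 146 and 409, so that the sum was alike in both libraries and its parts were not. Otof-205 has 0 windows of 100 bases of its own and Otof-204 has 95. A second coding form, Otof-202 with 1992 codons, ends in another last coding exon, of the same 178 coding bases in length and with 66.9% of these bases identical position by position. The sequences show where the coding sequences part, with the last 30 shared coding bases in lower case and the next 60 coding bases in capitals. The capitals lie at chr5:30370219-30370278 for Otof-201 and chr5:30367981-30368040 for Otof-202 (minus strand). Both transcripts end at chr5:30367062, so bases that code in only 1 form need not be absent from the other transcript.
Otof-201: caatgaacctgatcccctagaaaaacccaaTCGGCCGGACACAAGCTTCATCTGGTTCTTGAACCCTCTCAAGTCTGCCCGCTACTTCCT
Otof-202: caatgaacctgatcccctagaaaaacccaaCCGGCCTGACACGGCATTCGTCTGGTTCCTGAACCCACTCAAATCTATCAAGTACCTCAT
Otof-202 had 0 counts in both alignment-based tables, with posterior SDs of 48.0 and 30.4, and 91.5 and 0 counts in the read-based tables. The forms therefore differed in level in all 4 tables, with Otof-201 the higher one.

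Rasgrf2 had its counts spread over incomplete gene models. Rasgrf2-205, a model of 5797 bases whose coding sequence lacks its start, held 65.1% and 65.5% of counts and 37.6% and 38.9% of TPM. Rasgrf2-203, which lacks its end, held 33.8% and 33.7% of TPM. Rasgrf2-201, the form with the complete coding sequence of 1188 codons, held 16.7% and 15.3%. All 6 transcripts are annotated as coding, so the gene level contains no noncoding models. Rasgrf2-205 (chr13:91880400-91987989) and Rasgrf2-203 (chr13:92028496-92131656) do not overlap, so the gene level adds models of separate parts of the gene. Rasgrf2-201 alone had 18.2 and 15.3 TPM. Its model of 3567 bases holds 3564 coding bases, so reads from outside the coding sequence cannot be assigned to it. This TPM need not be the level of the complete mRNA. Rasgrf2-206, a shorter coding model of 505 codons, had 203 and 388 counts with posterior SDs of 65.5 and 56.9.

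Whrn, the scaffold protein whirlin of hair-cell stereocilia and of photoreceptors, was spread widely, with 10 of its 17 annotated transcripts at 5% of TPM or more in at least 1 table. Whrn-203 (918 codons) held 19.3% and 24.2% of TPM and Whrn-206 (906 codons) 16.7% and 25.7%. These long forms share 2718 coding bases and differ by 36 bases that Whrn-203 has in addition. Which of them was higher changed between the libraries in the alignment-based tables, whereas Whrn-203 was the higher one in both read-based tables, with 20.5% and 24.6% against 12.8% and 18.5%. Coding transcripts together held 55.9% and 61.9% of TPM. Whrn-205, a coding form of 476 codons, had 98.8 counts in replicate 1 and 0 in replicate 2, with posterior SDs of 39.2 and 23.5.

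Scnn1a, the α subunit of the epithelial sodium channel, was carried by Scnn1a-201, the form of 700 codons, with 91.9% and 83.3% of TPM, or 95.3 and 66.8 counts. The other coding forms had at most 10.3 counts each in the alignment-based tables. In the read-based tables Scnn1a-201 held less, with 57.2% and 77.4% of TPM, and Scnn1a-203 and Scnn1a-207 had 22.0 and 17.9 counts in replicate 1 and about 0 in replicate 2. Pou3f2 has a single exon and a single transcript of 445 codons, so the whole of its level belongs to 1 form.

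The relatives and partners of the 9 genes placed these levels in their families. At the gene level Cux2 was 1.84 times as high as Cux1 in each library, and 1.45 and 1.44 times in the read-based tables. This ratio depends on which transcripts are counted. Cux2 transcripts with the full coding sequence had 44.4 and 40.9 TPM, and its other models 56.7 and 50.9 TPM. Cux1 had 21.03 and 18.96 TPM with the long ending and 23.2 and 21.4 TPM with the short one. Of the POU3 factors, Pou3f3, which acts together with Pou3f2 in upper-layer development, was the highest, with 27.6 and 28.4 TPM, which is 2.43 and 2.44 times Pou3f2. Pou3f1 had 7.35 and 7.24 TPM and Pou3f4 3.17 and 2.49 TPM. The order Pou3f3, Pou3f2, Pou3f1, Pou3f4 held in both libraries. Coding bases of Pou3f2 aligned to Pou3f3 over 44.3% of its length at 83.7% identity.

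Rora, the paralogue of Rorb that many cortical and thalamic neurons express, had 36.3 and 33.8 TPM, 1.37 and 1.48 times Rorb. Rorb and Rora aligned over 96.9% of the coding bases of Rorb-203 at 67.5% identity.

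Rasgrf1, the close relative of Rasgrf2, had 132 and 127 TPM and was above Rasgrf2 in both libraries, by 1.21 and 1.27 times. The Rasgrf2 level in these ratios contains the incomplete models described above. Of the other genes of Ras activation, the exchange factors Sos1 (16.1 and 15.6 TPM) and Sos2 (14.6 and 15.7 TPM) were lower, and Rasgrp1, a diacylglycerol-responsive exchange factor, was at 147 and 133 TPM. Small GTPases that they act on were present with 108 and 105 TPM for Hras, 33.7 and 29.5 for Nras and 153 and 147 for Rac1. All 9 genes of this list were above 10 TPM in both libraries.

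Otof was the highest of the 6 ferlins. Myof had 2.89 and 1.73 TPM and Dysf 1.63 and 1.5 TPM, both known from membrane repair in muscle and other cells. Fer1l6 had 10 and 8 counts, Fer1l4 1 and 0 counts, and Fer1l5 was at 0 in both libraries. A count of 0 allows up to 3 counts, which for a transcript of 1 kb would be 0.163 TPM in the first library and 0.152 TPM in the second. Such limits, and the count intervals below, cover counting error only, because amplified reads carrying no molecular identifier are not independent.

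Calb1 was compared with other calcium-binding proteins that mark cortical neurons. Pvalb, the parvalbumin of fast-spiking interneurons, had 42.9 and 41.3 TPM and Calb2, the calretinin of another interneuron class, 8.89 and 11.5 TPM. Calb1 was 1.70 and 1.67 times Pvalb in the alignment-based tables but 0.882 and 0.856 times in the read-based ones, so the order of this pair was not fixed by these data. Of the more general calcium sensors, Hpcal4 with 232 and 227 TPM and Ncald with 201 and 179 TPM were higher than Calb1. Hpcal1, with 46.2 and 40.1 TPM, was lower than Calb1, and the glial protein S100b had 65.8 and 66.9 TPM.

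Most of the known partners of Whrn and Scnn1a were far lower than the members themselves. Whirlin belongs to the ankle-link complex of hair cells, as do Adgrv1 and Pdzd7. Adgrv1 had 0.680 and 0.670 TPM and Pdzd7 2.84 and 2.24 TPM, against 26.2 and 22.95 TPM for Whrn. Ush1c had 2 and 3 counts, and Myo15, the motor that carries whirlin to stereocilia tips, 3 and 12 counts. Partners with broader roles were higher, with 52.1 and 44.97 TPM for the synaptic scaffold Cask and 15.1 and 13.5 TPM for the actin regulator Eps8. The epithelial sodium channel is assembled from α, β and γ subunits. Scnn1b, the β subunit, had 0 counts in both libraries and Scnn1g, the γ subunit, 4 and 3, against 104 and 79 for Scnn1a. The channel's regulators were present, the ubiquitin ligase Nedd4l with 89.0 and 84.5 TPM and the kinase Sgk1 with 63.3 and 57.7 TPM.

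**Figure D3:**
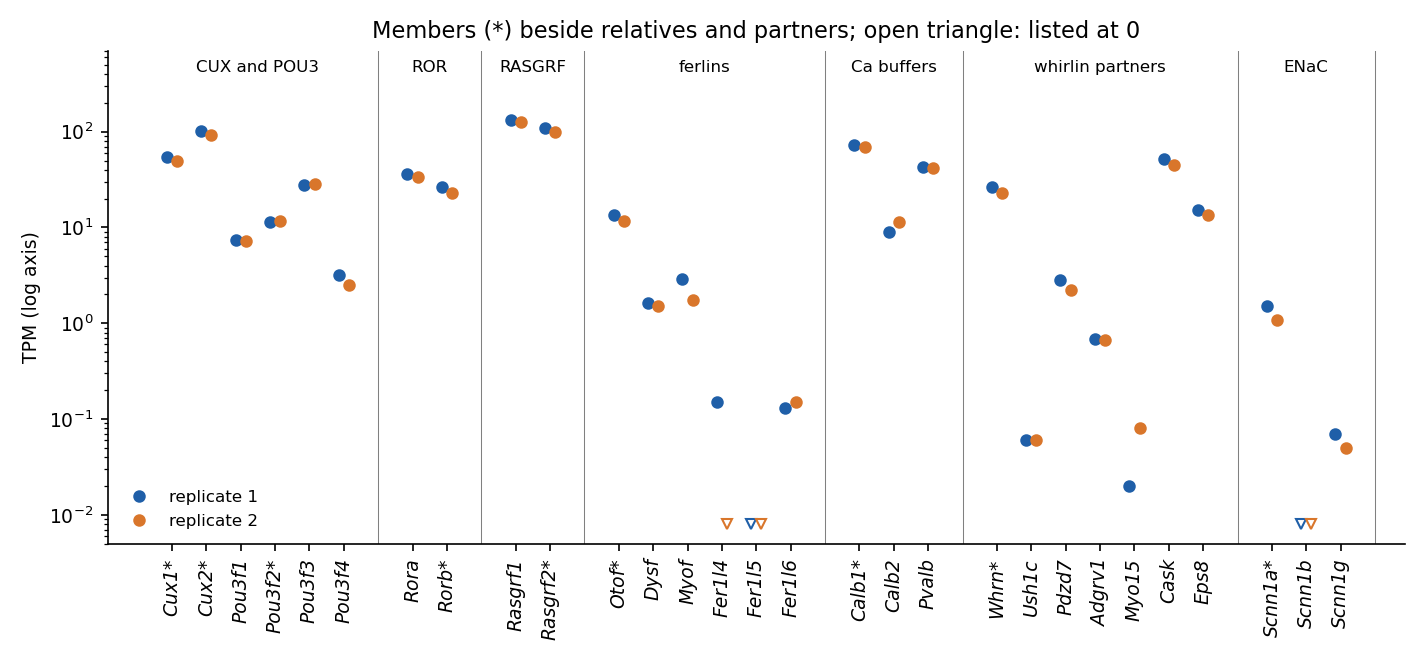
TPM (log axis, alignment-based tables) of the 9 genes, marked with *, beside relatives and partners, in replicate 1 (blue) and replicate 2 (orange); each point is 1 library, and open triangles at the bottom mark values listed at 0. Cux2, Otof, Calb1 and Scnn1a are the highest of their named relatives in the plot, and Rasgrf1, Rora and Pou3f3 lie above Rasgrf2, Rorb and Pou3f2. Of the whirlin partners shown, Adgrv1, Pdzd7, Ush1c and Myo15 lie below 3 TPM, and Cask and Eps8 lie higher.

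The libraries were then compared with each other, with TMM-scaled counts and the exact 95% interval of the ratio. For 4 of the 9 genes this interval left out equality, 1 higher and 3 lower in replicate 2. Over all 18562 genes that averaged 10 counts or more this was so for 15.1%, with 8.17% higher and 6.89% lower. Among the 5679 genes that averaged 1000 counts or more, to which 8 of the 9 belong, it was so for 25.7%, with 16.2% higher and 9.53% lower. The interval of 0 of the 9 genes lay beyond 2-fold, a limit that 0.307% of the 18562 genes passed and 0% of the 5679. The common biological coefficient of variation between the libraries was 4.08% in edgeR.

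The differences of the 8 genes other than Scnn1a were small. Otof was lower in replicate 2, with a log2 ratio of -0.14 (interval -0.24 to -0.05), Rorb with -0.09 (-0.15 to -0.03) and Cux1 with -0.06 (-0.12 to -0.01). Pou3f2 was the 1 gene called higher, with 0.11 (0.002 to 0.22), and its TPM was also the 1 that was not lower in replicate 2. Whrn, at 0.09, tilted the same way, but its interval of -0.02 to 0.20 included equality. Cux2 and Rasgrf2 were the closest to equality, both at -0.02, with intervals of -0.07 to 0.03 and -0.06 to 0.03. Calb1 was at -0.05 (-0.12 to 0.02). Scnn1a had a ratio of -0.42, but at 104 and 79 counts its interval of -0.86 to 0.02 was wide, and a difference was not detectable at this depth.

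The median log2 ratio of the 9 genes was -0.05, against -0.00106 over all 18562 genes. Of the 9 ratios 7 were below 0, as were 9336 of the 18562. Among the 5679 genes that averaged 1000 counts or more, 2596 were below 0. Other upper-layer markers leaned to the other side. Of 18 such genes, 8 were higher and 0 lower in replicate 2, with 16 ratios above 0 and a median of 0.08. Among them Lmo4, a LIM-domain cofactor, had 128 and 126 TPM, Wfs1, an endoplasmic reticulum protein, 70.3 and 66.4 TPM, and the POU factor Pou3f1 the lowest level. Markers of the upper layers thus did not share 1 direction.

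Of 8 other layer 4 markers, 7 averaged 10 counts or more, and 0 of these were called in either direction, with a median of -0.04. Lmo3 (73.1 and 67.4 TPM) and the potassium channel subunit Kcnab3 (42.5 and 41.0 TPM) were the highest of them, and Cyb5r2, with 2 and 1 counts, the lowest. Of 16 deep-layer markers, 0 were higher and 6 lower, with a median of -0.07. The calmodulin regulator Pcp4 had 206 and 202 TPM, Tbr1, a transcription factor of deep-layer neurons, 54.7 and 49.4, and Nxph4 3.48 and 2.32. Of the 9 general markers of excitatory neurons 4 were higher and 1 lower, with a median of 0.06; the highest, Camk2a and Nrgn, had 1165 and 1111 TPM and 809.9 and 834 TPM, and the lowest, Neurod1, 8.47 and 7.42.

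Markers of the striatum, next to the cortex, and of oligodendrocytes differed between the libraries too. Of 8 striatal markers, 7 were lower and 0 higher in replicate 2, with a median log2 ratio of -0.31, and their summed counts were 12764 and 10648. Ppp1r1b, the phosphatase inhibitor DARPP-32 of striatal projection neurons, had 110 and 88.8 TPM, the opioid precursor Penk 99.01 and 76.0 TPM, and the dopamine receptor Drd2 7.20 and 4.48 TPM; none of the 8 was at 0. Of 6 oligodendrocyte markers, 4 were higher and 0 lower, with a median of 0.16 and sums of 28055 and 32534 counts. The myelin protein Mbp had 303 and 334 TPM and Opalin, the lowest of them, 3.27 and 2.43 TPM. Calb1 is known in striatal and inhibitory neurons as well as in the upper layers. Of 12 markers of inhibitory neurons 1 was higher and 1 lower, with a median of -0.02 and sums of 33650 and 33711 counts. Sst had 190.1 and 187 TPM, Gad1 176 and 183 TPM and Lhx6 7.87 and 8.38 TPM. The part of these cells in the differences of the 9 genes was not tested.

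Markers of the remaining classes gave smaller medians. Of 6 astrocyte markers 3 were higher and 0 lower (median 0.07), of 5 markers of oligodendrocyte precursors 2 and 0 (0.08), of 6 microglial markers 0 and 0 (0.01), of the 7 thalamic markers that averaged 10 counts or more 2 and 1 (-0.02), and of the 7 such hippocampal markers 1 and 0 (0.01). Among the relatives and partners, those called were Pou3f3, Calb2, S100b and Hpcal4, which were higher in replicate 2, and Myof, Rasgrp1 and Ncald, which were lower. The calls in all these lists stand beside 15.1% called over all 18562 genes. Among the 5679 genes that averaged 1000 counts or more, 25.7% were called. All lists share the same pair of libraries, so their directions are not independent of each other.

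**Figure D4:**
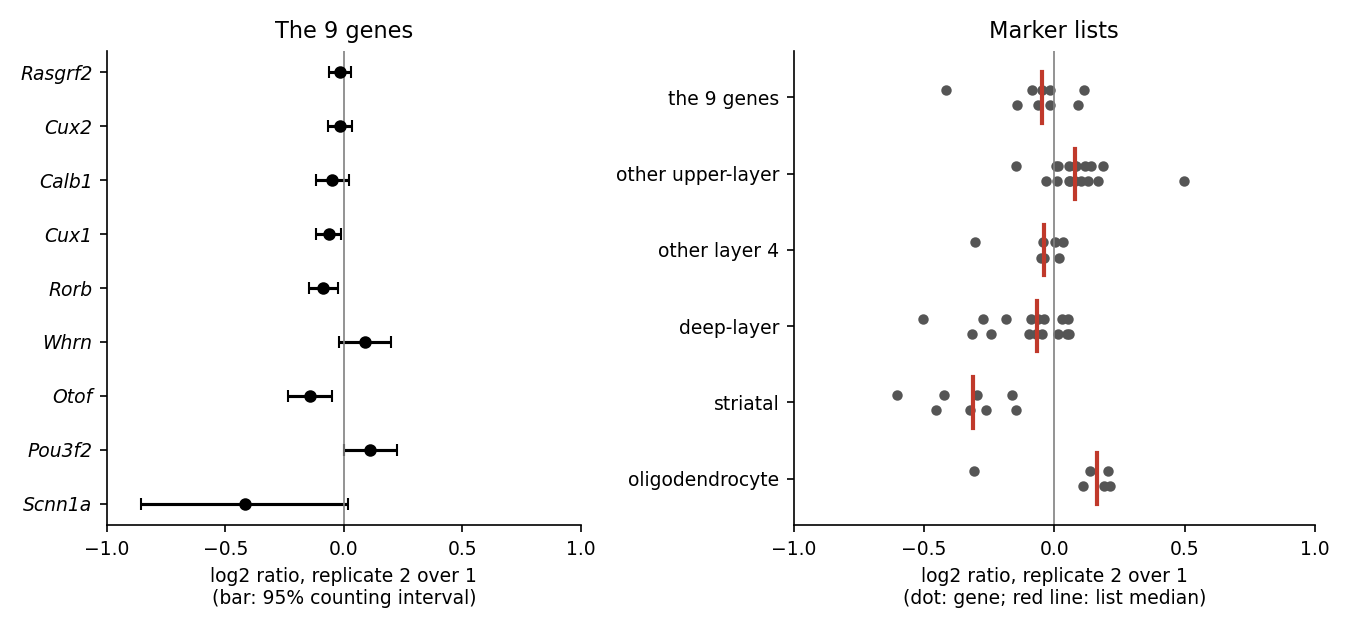
Left, log2 ratio of replicate 2 over replicate 1 for each of the 9 genes (point) with its 95% counting interval (bar). Right, the same ratio for every gene that averaged 10 counts or more (dots) in 6 marker lists, with the list median as a red line; the medians run from -0.31 for striatal markers to 0.16 for oligodendrocyte markers, with the 9 genes at -0.05.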

How the data were processed

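Total RNA of left cerebral cortex was measured in 2 libraries of 1 group. Per the list of files deposited with each library, values are on mm10 with GENCODE M21. The authors deposited expected counts and TPM per gene and transcript, derived from alignments, with the percent of the gene's TPM per transcript, and a further table per transcript with estimated counts and TPM, made from the reads without those alignments (read-based). Aligner and quantification tools were not given in the sources used here. Reads of CAST/EiJ alleles were quantified against the C57BL/6J reference, which can lower counts.

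Expected counts were rounded and scaled by TMM (edgeR 4.0.16 in R 4.3.3), using genes that averaged 10 counts or more. To each count 0.5 was added for the ratio, whose 95% interval is the exact Clopper-Pearson one, and a gene was called where the interval left out equality or, for the larger limit, lay beyond 2-fold. Spike-ins and transfer RNA features were left out. Transcript shares were computed per gene from TPM and from counts, and transcripts were summed to genes in the read-based tables. Coding sequences come from GENCODE M21 and promoters from RefSeq (GRCm38.p6), and coding sequences were aligned with blastn 2.17.0. On simulated data the size factor, the coefficient of variation and the calls beyond 2-fold were checked, but not the calls off equality. The 9 genes and all lists were chosen with earlier results of these data known. All members, their relatives and partners were to be named, the 2 highest and the lowest gene of each other list, any gene of a list beyond 2-fold, and transcripts with at least 5% of TPM; lists with little bearing on the layers are given by counts alone. A few genes are not reported here. DESeq2 1.42.0 gave alternative size factors.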

Additional observations from a re-analysis of the deposited data

How the results depend on the processing

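The number of members off equality was 4, and beyond 2-fold 0, with DESeq2 size factors, spike-in totals, scaling over all genes, a prior count of 5, read-based counts and posterior mean counts, and each of the 9 log2 ratios kept its sign under all of them. Levels and transcript shares moved. In the read-based tables, whose TPM is on another scale, mean TPM was 82.6 for Cux1, 38.4 for Whrn and 2.01 for Scnn1a, over 1.5 times the alignment-based values; 5 other genes were higher by less, and Calb1 was lower at 56.0. The short ending of Cux1 held a mean of 42.6% of TPM, 36.2% in the read-based tables and 23.5% of counts. The full coding sequence of Cux2 held 44.2%, 58.0% and 86.9%, and the upstream start of Rorb 91.0%, 92.6% and 97.3%. Leaving out either library gave 42.3% to 42.9% for Cux1, 43.9% to 44.5% for Cux2 and 89.0% to 93.0% for Rorb. That shares of counts differ from shares of TPM follows from dividing by length; the cause of the difference between the kinds of table was not tested. TPM rescaled without 7SL, 7SK and mitochondrial RNA raised all 9 levels, to 185 for Rasgrf2 and 2.29 for Scnn1a. No paired analysis was possible because the series has 1 group.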
